A study of Mus musculus with 15 samples.

Results

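The genes described here are *Flna*, *Flnc*, *Tln1*, *Myh9*, *Myh10*, *Actn1*, *Actn4*, *Vcl* and *Iqgap1*, 9 of the 54532 genes in a table of kidney expression values. *Flna* was selected on its level, which fell strongly in AA mice compared with M mice, and the other 8 were taken as related genes of the actin cytoskeleton. The values that chose *Flna* are therefore its levels in the AA and M groups, so all of its comparisons are given as a description, and no p-value of AA against M is given for any of the genes, for which counts of calls in that contrast are descriptions too. All 9 genes were found by Ensembl identifier, had FPKM above 0 in all 15 libraries and passed the filter on low values in every comparison.

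The study asked how asiatic acid, a plant triterpenoid, acts on chronic kidney disease (CKD) in mice given adenine, a purine that injures the kidney tubules when fed in excess. The 15 libraries are whole kidneys of male C57BL/6 mice that were 8 weeks old at the start, 5 in each group. The C group received a normal diet and vehicle. The M group received 0.25% adenine in the diet for 4 weeks and vehicle, and the AA group received the same adenine together with 30 mg/kg of asiatic acid by daily gavage. In the following weeks all mice were on the standard diet, asiatic acid was continued in the AA group, and the mice were killed at week 8. The study assigned more mice to a group than were sequenced, and the sources used here do not say how the 5 were picked. Adenine feeding is a chemical injury model, so the M and AA groups share adenine and the C group has neither agent. The levels are in FPKM, fragments counted on a gene relative to its length and to a total of its library, and describe whole kidneys, in which fewer cells of a type and less RNA per cell cannot be told apart.

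Filamins are long rod-shaped proteins that cross-link actin filaments into networks and tie them to integrins and other membrane proteins. Filamin A is made in most cells, whereas filamin C is mainly a protein of skeletal and heart muscle. Talin binds the tails of integrins and couples them to actin, vinculin strengthens that bond at focal adhesions, the alpha-actinins bundle filaments, the non-muscle myosins II pull on them, and Iqgap1 is a scaffold that binds actin. In the kidney this machinery shapes the foot processes of podocytes, and contractile stress fibers mark the myofibroblasts of fibrotic tissue. Human mutations of *ACTN4* and *MYH9* are known causes of glomerular disease.

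The stretches upstream of *Flna*, *Flnc* and *Vcl* are shown because the first 2 are paralogs whose levels moved differently and the third is the member with a CArG box. Each is the 250 bases before the RefSeq transcript start on GRCm38.p6, written 5′ to 3′ on the strand of the gene: chrX:74246535-74246784 on the minus strand for *Flna*, chr6:29433006-29433255 on the plus strand for *Flnc* (its second RefSeq start) and chr14:20929148-20929397 on the plus strand for *Vcl*. Capitals mark the GC box (GGGCGG), the MCAT element (GGAATG) and the CArG box, each searched on both strands, and runs of capitals hold overlapping or adjoining matches.
Flna: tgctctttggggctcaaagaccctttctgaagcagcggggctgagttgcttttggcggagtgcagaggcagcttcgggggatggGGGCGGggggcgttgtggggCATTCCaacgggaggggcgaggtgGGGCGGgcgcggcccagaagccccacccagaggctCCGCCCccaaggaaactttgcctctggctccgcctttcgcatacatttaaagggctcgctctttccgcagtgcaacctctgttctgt
Flnc: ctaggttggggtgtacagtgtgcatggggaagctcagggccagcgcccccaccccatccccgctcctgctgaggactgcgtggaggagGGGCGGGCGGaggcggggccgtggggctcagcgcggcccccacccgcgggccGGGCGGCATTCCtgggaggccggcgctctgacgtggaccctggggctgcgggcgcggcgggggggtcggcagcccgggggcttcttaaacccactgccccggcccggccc
Vcl: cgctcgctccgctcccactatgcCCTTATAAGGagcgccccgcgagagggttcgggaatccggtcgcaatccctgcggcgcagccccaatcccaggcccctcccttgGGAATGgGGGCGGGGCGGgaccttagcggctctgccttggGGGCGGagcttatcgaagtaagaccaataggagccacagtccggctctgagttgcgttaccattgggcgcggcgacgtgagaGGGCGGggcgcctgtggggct
The *Flna* stretch held 3 GC boxes and 1 MCAT element 146 bases before the start, and that of *Flnc* held 3 and 1. The *Vcl* stretch held 4 GC boxes, 1 MCAT element and 1 CArG box 227 bases before the start, the sequence that serum response factor binds in actin-linked genes. A GC box was in 32.7% of the 32851 RefSeq stretches of this length and in those of 7 of the 9 genes, an MCAT element in 12.6% and in 5 of 9, and a CArG box in 1.47% and in 1 of 9. The start used for *Flna* lies inside the gene's GENCODE M21 interval, and 21 of the 250 bases lie in its exons.

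From the recovered read steps, the libraries held 13647036 to 28884450 reads, of which 6951352 to 13576620 in C mice, 2077644 to 7142900 in M mice and 2225755 to 4271183 in AA mice were outside the mitochondrial genome. Mitochondrial genes took 53.0 to 62.5% of the reads in C mice, 64.0 to 86.8% in M mice and 69.2 to 87.2% in AA mice. The FPKM of a library summed to 263859 to 463739 in C mice, 412144 to 1171211 in M mice and 460489 to 1481916 in AA mice. The main fits used these values as deposited. M mice 1 to 3 had 10068 to 12222 genes above 0, whereas M mice 4 and 5 had 23040 and 25460, and all C and AA mice had 18695 to 25251. The table's header sets the columns of M mice 4 and 5 apart from those of M mice 1 to 3, but no label names a batch, so most differences between M and C are also given for M mice 4 and 5 alone and M mice 1 to 3 alone. The M libraries that stand apart also parted several of these genes, as described with each.

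*Flna* (ENSMUSG00000031328, GRCm38 chrX:74223461-74249820, minus strand), the widely expressed filamin, was low in all AA mice. Its FPKM was 6.92, 12.5, 5.93, 13.2 and 9.68 in C mice 1 to 5. It was 4.67, 10.2, 9.35, 17.3 and 27.4 in M mice 1 to 5. It was 0.859, 0.908, 2.19, 1.48 and 2.58 in AA mice 1 to 5. Every AA mouse was below every C and M mouse, and the C and M mice overlapped widely, with M mice 4 and 5 the highest of all. These values rest on 2090 to 4708 recovered reads in C mice, 509 to 8033 in M mice and 77 to 390 in AA mice. Among 21982 protein-coding genes ordered from the highest FPKM, *Flna* stood at places 831 to 1930 in C mice, 207 to 2216 in M mice and 3757 to 8766 in AA mice. On the log2(FPKM + 1) scale, AA minus M was -2.34 (SE 0.42; -3.18 against M mice 4 and 5 and -1.79 against M mice 1 to 3), the contrast that chose the gene, and AA minus C was -2.02 (SE 0.28, 95% interval -2.63 to -1.42). The difference between AA and C lay between -2.17 and -1.91 with any 1 library left out. Since the AA values took part in choosing the gene, this interval and range describe its level and are not a test. M minus C was 0.32 (SE 0.42, 95% interval -0.58 to 1.22), or 1.16 with M mice 4 and 5 alone and -0.24 with M mice 1 to 3 alone, and turned to -0.61 when every library was scaled to the same total (TPM), a scaling that moved the median of all genes to -0.58 in M vs C and to -0.39 for AA vs C. The order of the group means was thus M, C and AA, in which M and C did not differ beyond their spread.

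**Figure D1:**
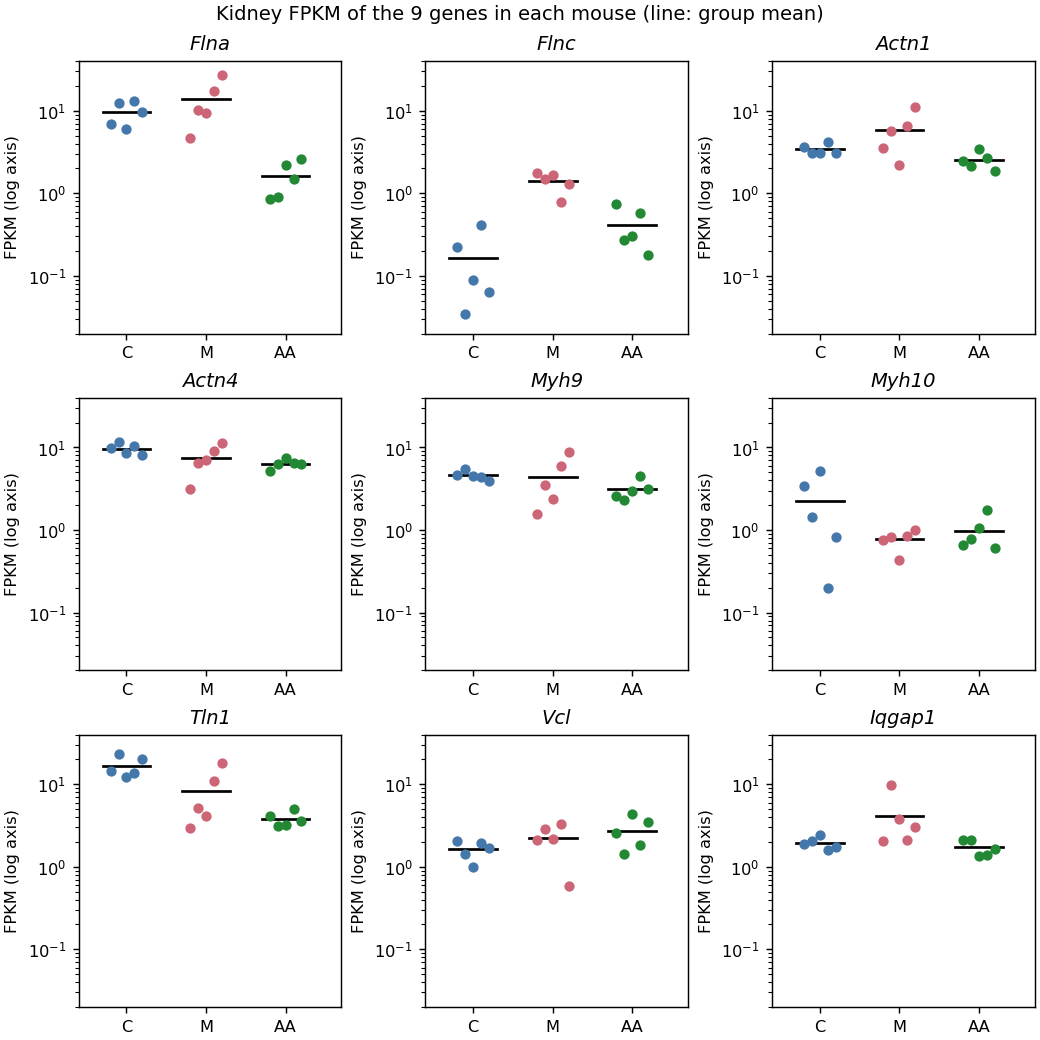
Kidney FPKM of the 9 genes (log axis) in each of the 15 mice, with 1 point per mouse and a line at the mean of each group of 5. The AA points of *Flna* lie at 0.859 to 2.58, below all C and M points, the M points of *Flnc* lie at 0.783 to 1.76, above all others, and the AA points of *Tln1* lie at 3.11 to 5.07, below all C points.

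*Flnc* (ENSMUSG00000068699, chr6:29433256-29461883, plus strand), the muscle filamin, had another order, with the M group highest. Its FPKM was 0.225, 0.0344, 0.0897, 0.415 and 0.0636 in C mice 1 to 5. It was 1.76, 1.49, 1.64, 0.783 and 1.30 in M mice 1 to 5. It was 0.750, 0.271, 0.305, 0.574 and 0.178 in AA mice 1 to 5. Every M mouse was above every C and AA mouse, and the AA and C mice overlapped. The C values rest on only 13 to 132 recovered reads. *Flnc* rose in M compared with C by 1.03 on the log2(FPKM + 1) scale (SE 0.22, limma, Benjamini-Hochberg adjusted p = 0.0376), higher in 5 of 5 mice. That call was lost without any 1 of the 5 C libraries and without M mouse 1, 2 or 3, with adjusted p-values between 0.0621 and 0.152 in limma, while the difference stayed between 0.98 and 1.13. With M mice 4 and 5 alone it was 0.81 (limma adjusted p = 0.115) and with M mice 1 to 3 alone 1.18 (limma adjusted p = 0.00599). The added 1 FPKM understates a change at this level: with 0.1 in its place the difference was 2.63 (limma adjusted p = 0.0527). AA minus C was 0.27 (95% interval -0.02 to 0.57, limma adjusted p = 0.134), and AA minus M was -0.76 (SE 0.25).

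*Tln1* (ENSMUSG00000028465, chr4:43531519-43562691, minus strand), which encodes talin 1, was the other member with a large difference between the AA and C groups. Its FPKM was 14.4, 23.3, 12.1, 13.8 and 20.4 in C mice 1 to 5. It was 2.98, 5.17, 4.13, 11.0 and 18.1 in M mice 1 to 5. It was 4.08, 3.11, 3.24, 5.07 and 3.63 in AA mice 1 to 5. All AA mice were below all C mice, M mice 1 to 3 lay among or near the AA mice, and M mice 4 and 5 lay near or among the C mice. *Tln1* fell in AA compared with C by 1.86 on the log2(FPKM + 1) scale (SE 0.23, 95% interval -2.36 to -1.36, limma adjusted p = 0.000302), lower in 5 of 5 mice and called without any 1 library. M minus C was -1.15 (95% interval -2.06 to -0.24, limma adjusted p = 0.202). Without M mouse 5 that difference was -1.47 and was called (limma adjusted p = 0.0436), with M mice 1 to 3 alone it was -1.79 (limma adjusted p = 0.0042), and with M mice 4 and 5 alone -0.19 (limma adjusted p = 0.898). AA minus M was -0.71 (SE 0.41), from -0.07 against M mice 1 to 3 to -1.66 against M mice 4 and 5.

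*Tln2*, which encodes the second talin, had a mean FPKM of 3.68 ± 1.37 in C mice, 0.883 ± 0.495 in M mice and 2.12 ± 0.461 in AA mice (SD, n = 5). It fell in M compared with C by 1.31 on the log2(FPKM + 1) scale (SE 0.29, limma adjusted p = 0.0473), a call lost with a pseudocount of 0.1 (limma adjusted p = 0.0624) and held in 1 of 10 fits with a library left out, that without M mouse 5. The difference was -0.92 with M mice 4 and 5 alone (limma adjusted p = 0.265) and -1.57 with M mice 1 to 3 alone (limma adjusted p = 0.00743). The genes were also set against their paralogs within a library, since scaling a library moves both genes of a ratio alike, apart from the added 1 FPKM. The log2 ratio of *Tln1* to *Tln2* was 1.64 to 2.38 in C mice, 1.21 to 3.00 in M mice and 0.20 to 1.20 in AA mice. All AA mice were below all C and M mice, which overlapped with each other. AA minus C was -1.31 (exact permutation test, two-sided, p = 0.00794, the smallest that 5 against 5 can give). Whether it passed 0.05 rested on how the exact permutation p was adjusted, which gave 0.0317 over the 8 planned ratio tests, 0.0476 over the 6 reported and 0.0635 by Bonferroni over the 8. Without any 1 of the C libraries it did not pass (exact permutation test, adjusted p = 0.0635 each time), while the AA mice stayed lower. M minus C was 0.16 (exact permutation test, adjusted p = 0.717).

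**Figure D2:**
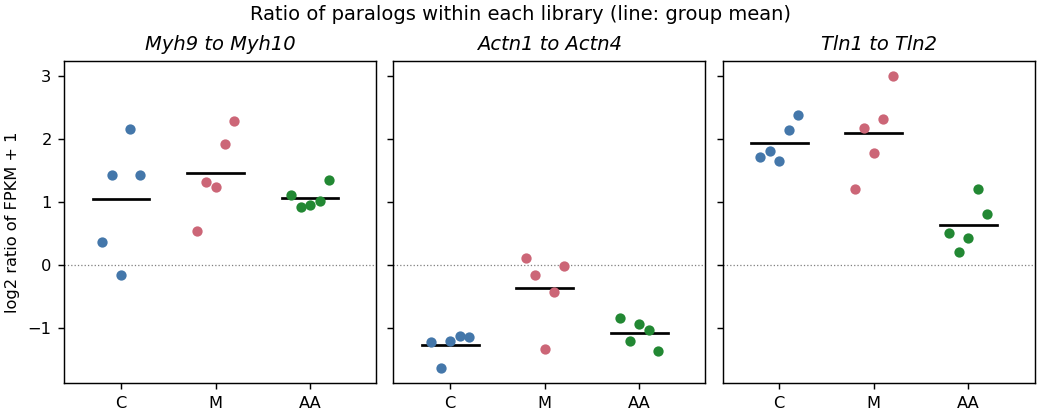
Log2 ratio of FPKM + 1 of 3 paralog pairs within each library, with 1 point per mouse, a line at the mean of each group of 5 and a dotted line at equal levels. The AA points of *Tln1* to *Tln2* lie at 0.20 to 1.20, below all C and M points.

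*Vcl* (ENSMUSG00000021823, chr14:20929398-21033676, plus strand), which encodes the talin partner vinculin, did not follow *Tln1*. Its FPKM was 0.983 to 2.06 in C mice (median 1.67), 0.591 to 3.29 in M mice (median 2.19) and 1.41 to 4.38 in AA mice (median 2.57). The groups overlapped, and M mouse 5, which was the highest of the M mice for *Flna* and *Tln1*, was the lowest for *Vcl*. M minus C was 0.23 (95% interval -0.44 to 0.91, limma adjusted p = 0.717), with 0.012 for M mice 4 and 5 alone and 0.38 for M mice 1 to 3 alone. AA minus C was 0.47 (95% interval -0.08 to 1.02, limma adjusted p = 0.16) and AA minus M was 0.23 (SE 0.35). M minus C and AA minus C turned negative under that scaling to the same total, to -0.52 and -0.28, and AA minus M turned to -0.28 under median centring.

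Neither of the alpha-actinins, which bundle filaments, was called in M vs C or AA vs C. FPKM of *Actn4* (ENSMUSG00000054808, chr7:28893248-28962340, minus strand), the podocyte-linked member of the pair, was 9.80, 11.7, 8.53, 10.4 and 8.06 in C mice 1 to 5. It was 3.16, 6.51, 7.02, 9.08 and 11.5 in M mice 1 to 5. It was 5.26, 6.26, 7.46, 6.51 and 6.39 in AA mice 1 to 5. All AA mice were below all C mice, and the M mice spanned both. AA minus C was -0.53 (SE 0.19, 95% interval -0.94 to -0.12, limma adjusted p = 0.0442), which passed the limit on p but not the required log2 fold change of 1. With 1 library left out, that p passed 0.05 only without AA mouse 3 (limma adjusted p = 0.046) and was 0.0574 to 0.0913 in the other fits, and M minus C was -0.42 (limma adjusted p = 0.532), or 0.078 with M mice 4 and 5 alone and -0.75 with M mice 1 to 3 alone. *Actn1* (ENSMUSG00000015143, chr12:80167547-80260371, minus strand) had a mean FPKM of 3.43 ± 0.501 in C mice, 5.83 ± 3.48 in M mice and 2.52 ± 0.592 in AA mice (SD, n = 5), with the M mice from 2.18 to 11.3, overlapping both other groups. M minus C was 0.48 (limma adjusted p = 0.516), or 1.12 with M mice 4 and 5 alone and 0.058 with M mice 1 to 3 alone, AA minus C was -0.34 (limma adjusted p = 0.181) and AA minus M was -0.82 (SE 0.36). The log2 ratio of *Actn1* to *Actn4* was -1.27 ± 0.213 in C mice, -0.37 ± 0.576 in M mice and -1.08 ± 0.213 in AA mice. It was higher in M than in C mice by 0.90, which did not pass the threshold over 8 ratio tests (exact permutation test, p = 0.0397, adjusted p = 0.106), and M mouse 3 at -1.33 lay among the C mice.

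The non-muscle myosins II were not called in either comparison. FPKM of *Myh9* (ENSMUSG00000022443, chr15:77760587-77842175, minus strand), which encodes the heavy chain of myosin IIA, was 3.94 to 5.56 in C mice (median 4.52), 1.56 to 8.73 in M mice (median 3.55) and 2.33 to 4.54 in AA mice (median 2.96). Only AA mouse 4 reached the C mice, and M mice 4 and 5 lay above all C mice while M mice 1 to 3 lay below them. AA minus C was -0.47 (95% interval -0.90 to -0.03, limma adjusted p = 0.0847), and M minus C was -0.21 (limma adjusted p = 0.783), or 0.56 with M mice 4 and 5 alone and -0.72 with M mice 1 to 3 alone. *Myh10* (ENSMUSG00000020900, chr11:68691559-68816632, plus strand), which encodes the heavy chain of myosin IIB, varied widely within C mice. Its FPKM was 3.45, 1.45, 5.15, 0.201 and 0.832 in C mice 1 to 5, 0.437 to 1.01 in M mice and 0.612 to 1.76 in AA mice. The C mice spanned the whole range of the other groups, and neither M minus C (-0.62, limma adjusted p = 0.473) nor AA minus C (-0.49, limma adjusted p = 0.342) was larger than that spread. The ratio of *Myh9* to *Myh10* gave exact permutation adjusted p-values of 0.614 for M against C and 0.960 for AA against C. *Myh14*, the third non-muscle myosin II heavy chain, had a mean FPKM of 1.92 ± 0.693 in C mice, 0.281 ± 0.285 in M mice, with M mice 2 and 3 listed at 0, and 0.693 ± 0.569 in AA mice. M minus C for *Myh14* was -1.18 (limma adjusted p = 0.0503) and AA minus C was -0.81 (limma adjusted p = 0.0296, below the required fold change).

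*Iqgap1* (ENSMUSG00000030536, chr7:80711583-80825974, minus strand), the scaffold, had overlapping levels in C and AA mice. Its FPKM was 1.61 to 2.44 in C mice (median 1.89) and 1.35 to 2.13 in AA mice (median 1.63). In M mice 1 to 5 it was 2.07, 9.83, 3.79, 2.11 and 3.02. M mouse 2 was far above the other M mice, of which M mice 3 and 5 were also above all C and AA mice. M minus C was 0.64 (95% interval -0.11 to 1.40, limma adjusted p = 0.378) and 0.33 without M mouse 2. It was 0.27 with M mice 4 and 5 alone and 0.89 with M mice 1 to 3 alone. AA minus C was -0.12 (95% interval -0.52 to 0.29, limma adjusted p = 0.637), and AA minus M was -0.76 (SE 0.36).

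**Figure D3:**
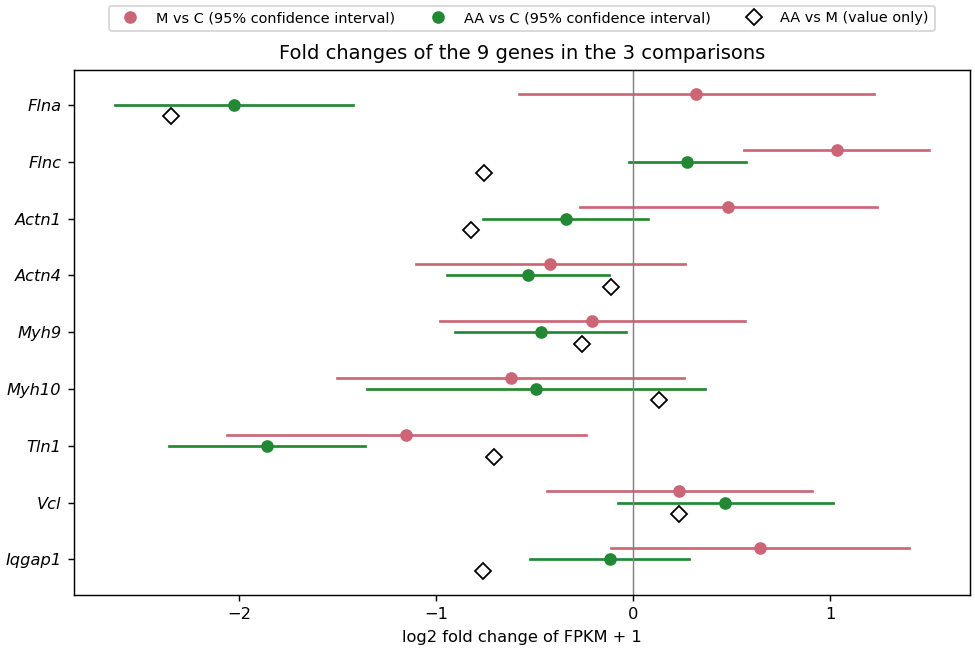
Log2 fold change of FPKM + 1 of the 9 genes in M vs C and AA vs C (points with 95% intervals) and in AA vs M (diamonds, values only, since this contrast chose *Flna*). *Flna* lies at -2.02 and *Tln1* at -1.86 in AA vs C, and *Flnc* at 1.03 in M vs C. The intervals of *Flna* are descriptions, since its AA and M values chose it.

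Counted over the 9 genes, 1 was called in M vs C (*Flnc*, higher), where 1.38% of the 21153 genes tested were called and 0.269% were called higher. Their median log2 fold change was 0.23 (0.013 without *Flna*), against -0.12 over all genes. Of the 9, 1 had groups that did not overlap, against 4.72% of all genes and 1.05% higher. In AA vs C, *Tln1* was called among the 8 genes other than *Flna*, where 19.8% of 21898 genes were called and 9.61% were called lower, so this share was near that of all genes. *Flna* passed the same limits with the AA libraries that chose it. The 9 genes had a median of -0.47, and the 8 without *Flna* a median of -0.40, against 0.09 over all genes. Of these 8, 2 (*Tln1* and *Actn4*) had AA mice all below the C mice, against 12.5% of all genes, or 24% in either direction. In AA vs M, the contrast that chose *Flna*, *Flna* passed the limits by its choice and 0 of the other 8 genes did, where 12.8% of 19798 genes were called and 1.07% were called lower. *Flnc* was the other gene without overlap there (13.2% of all genes and 1.31% lower), the medians were -0.71 and 0.17, and nothing is read from these counts. The 3 comparisons share libraries, so a low value in the same AA mice, or a high one in the same M mice, enters 2 of them.

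The wider actin cytoskeleton was described by 101 other genes in 7 groups of known role, of which 99 were tested in each comparison. In AA vs C, 8 of 99 were called, 6 of them lower, beside 19.8% of all genes called and 9.61% called lower, so the list was not called more often than genes in general. Its median was 0.13 on the log2(FPKM + 1) scale, against 0.09 over all genes. Those that fell included the spectrin *Sptan1* by 1.67 (limma adjusted p = 0.000311), the focal adhesion tensins *Tns2* by 1.63 (limma adjusted p = 0.00229) and *Tns1* by 1.62, and the microvillar bundler *Vil1* by 1.62 (limma adjusted p = 0.00381). The linker *Plec* (-1.38) and the adhesion adaptor *Pxn* (-1.02) were also called, though not with the trend in GC content removed (-0.91 and -0.66), and *Pxn* was also not called with library quality weights (-0.85) or quantile normalization (-0.99). *Marcks*, a membrane-bound actin cross-linker, rose by 1.62 (limma adjusted p = 0.000718) and *Arhgdib*, a gene of blood cells, by 1.17 (limma adjusted p = 0.0111). These 2 rises were 0.63 and 0.50 under scaling to the same total and 0.84 and 0.86 in limma voom on recovered reads, and were not called in either, while the 6 falls were called in both. Those settings moved the median of all genes in AA vs C to -0.39 and -0.75, which makes rises smaller and falls larger. The contrast between the rises and the falls is therefore not read as a difference in how firm they are. By role, 2 of 13 bundlers and cross-linkers, 3 of 18 membrane linkers and focal adhesion genes and 1 of 27 genes of actin assembly were called lower, numbers too small to set apart from the 9.61% of all genes. In M vs C, 1 of 99 was called (*Tln2*) beside 1.38% of all genes, with a median of 0.19 against -0.12, and in AA vs M 1 of 99 (*Plec*, -1.48) beside 12.8%, with a median of -0.10 against 0.17. *Plec*, which encodes the giant linker plectin, had the same order of group means as *Flna*, 2.75 ± 0.687 in C mice, 3.53 ± 2.82 in M mice and 0.450 ± 0.316 FPKM in AA mice (SD, n = 5).

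**Figure D4:**
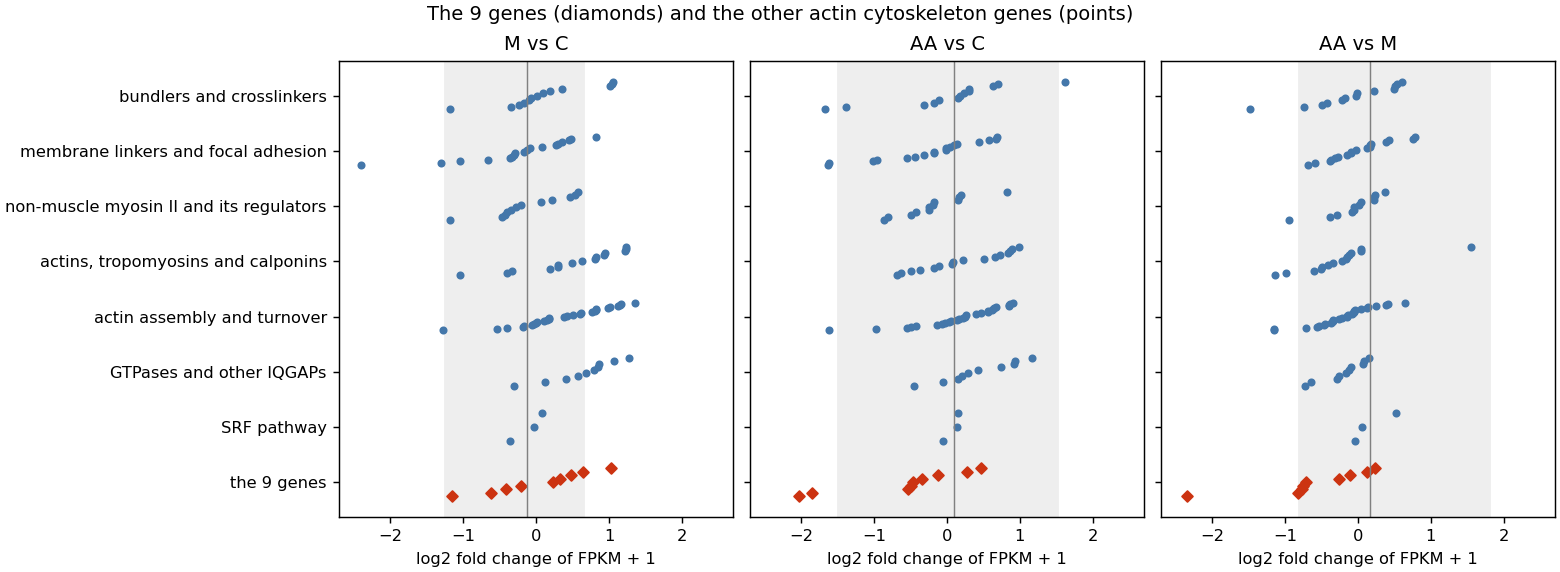
Log2 fold change of FPKM + 1 of the 9 genes (diamonds) and of the tested other actin cytoskeleton genes by role (points) in the 3 comparisons. The gray band holds the middle 90% of all genes tested and the gray line their median. *Flna* at -2.02 and *Tln1* at -1.86 lie below the band's lower edge of -1.49 in AA vs C, and *Flna* at -2.34 lies below the edge of -0.80 in AA vs M. *Flna* was chosen by its fall in AA vs M, so its places in these 2 comparisons are descriptions only.

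The genes with the pattern most like that of *Flna* were found by the root-mean-square difference of log2(FPKM + 1), centred on each gene's mean, over the 15 libraries and among 8959 genes. The nearest were *Bax* (0.478), *Nop56* (0.492), *Vars* (0.496), *Sipa1* (0.498), *Plec* (0.507) and *Ppp1r35* (0.531). *Bax* had a mean FPKM of 11.5 ± 2.60 in C mice, 11.3 ± 8.05 in M mice and 2.62 ± 1.84 in AA mice, and *Vars* 6.55 ± 0.763, 5.98 ± 4.85 and 0.858 ± 0.379 (SD, n = 5). The AA group was the lowest and the M group the most spread out in these genes, which were picked for their likeness to *Flna*. Of the actin-linked genes, *Tln1* stood at place 359, *Actn1* at 616, *Myh9* at 1107, *Actn4* at 1377, *Iqgap1* at 2690, *Myh10* at 5560 and *Vcl* at 6139, and *Flnc* was too low for the comparison. The libraries share depth and base composition, and this order is a description.

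The 9 genes have long transcripts, 3734 to 9038 bases in their longest form (median 7444), against a median of 3312 bases over 16095 tested protein-coding genes. Of long protein-coding genes, with joined exons of at least 5000 bases, 8.34% were called lower in AA vs C. The share was 0.618% in M vs C, and it was 0.57% for AA vs M. Base composition moved with the difference between AA and C. The share of genes called lower rose from 3.58% where GC content was up to 46% to 29.2% where it was above 58%, and was 13.3% in the class of *Flna* (GC 54%) and 22.9% in that of *Tln1* (57%). With that trend removed, AA minus C was -1.86 for *Flna* and -1.54 for *Tln1* (limma adjusted p = 0.000463), while for *Flnc* (58.4%) it was 0.66 (limma adjusted p = 0.00883) in place of 0.27. At most 1.38% of the 31-base words of any of the 9 genes occur in another gene. *Tln1* overlaps *Creb3*, *Actn4* overlaps *Capn12* and *Vcl* overlaps *Ap3m1* on the opposite strand, and reads of such pairs cannot be told apart without strand.

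Markers of cell types of kidney, blood and muscle were summed in each mouse. All 10 proximal tubule markers were detected, the mark of kidney, with sums of 3047 to 12550 FPKM in C mice, 93.4 to 541 in M mice and 166 to 560 in AA mice. The 8 macrophage markers summed to 17.3 to 110, 150 to 420 and 107 to 165 FPKM in the C, M and AA groups, and the 7 fibroblast markers to 38.6 to 97.0, 85.4 to 368 and 236 to 415. The fibroblast sum was higher in all AA mice than in any C mouse, whereas *Flna* was lower in all of them. The 6 endothelial markers summed to 16.6 to 33.2, 14.7 to 22.6 and 9.47 to 17.0 FPKM, lower in most AA mice than in the C mice, as *Flna* and *Tln1* were, and the 5 platelet markers to 2.91 to 5.43, 3.47 to 15.9 and 0.619 to 4.61, with *Gp1bb* and *Gp9* at 0 in most libraries. The 7 smooth muscle and pericyte markers summed to 42.1 to 103, 25.7 to 109 and 57.9 to 89.1 FPKM, and the 5 podocyte markers to 4.10 to 11.8, 0.449 to 18.4 and 6.09 to 11.2, so these groups overlapped. The 6 skeletal muscle markers summed to 0.347 to 1.64, 0 to 29.7 and 0.558 to 4.34 FPKM, with *Ckm* and *Myh4* at 0 in most libraries. In M mouse 1, where *Flnc* was highest at 1.76 FPKM, all 6 were at 0. The 6 lymphocyte markers (*Cd79a* at 0 in most libraries) summed to 0.868 to 15.5, 0.329 to 12.1 and 8.94 to 18.5 FPKM, the 5 red blood cell markers to 30.4 to 212, 13.3 to 31.2 and 7.51 to 41.0, and the 5 markers of the loop of Henle and distal tubule to 106 to 500, 21.3 to 90.1 and 39.2 to 69.7. The part of these cell types in the levels of the 9 genes was not tested.

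**Figure D5:**
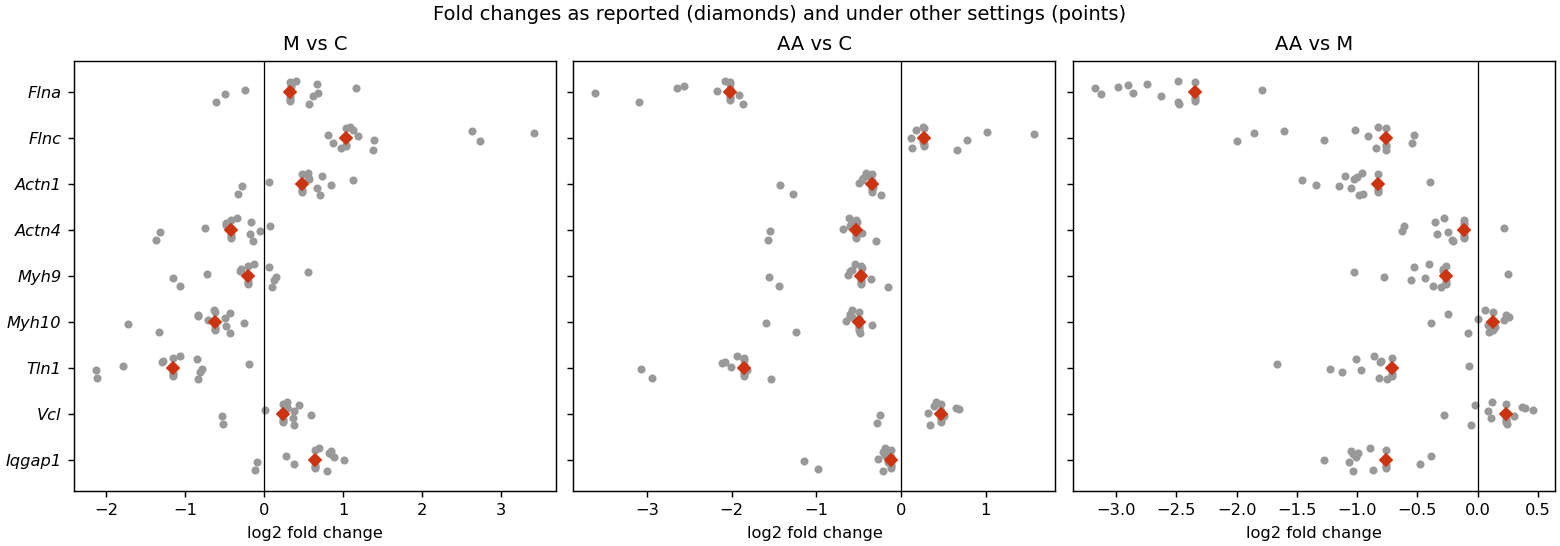
Log2 fold change of each of the 9 genes as reported (diamonds) and under other processing settings (points) in the 3 comparisons, with a line at 0. *Flna* and *Tln1* stay between -3.61 and -1.54 in AA vs C under every setting shown, whereas *Flna*, *Actn1*, *Actn4*, *Myh9*, *Vcl* and *Iqgap1* fall on either side of 0 in M vs C. For *Flna*, which its AA and M values chose, this is a description.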

How the data were processed

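RNA of 15 mouse kidneys was read as 1 library each, and labels gave the group and number of each mouse. Per the study's methods and the submitters' processing notes, the authors trimmed reads with fastp, aligned 150-base paired reads of poly-A RNA to mm10 with HISAT2 2.0.5, counted genes with featureCounts 1.5.0-p3 and deposited FPKM per gene and library. The strand setting of the counting is not given in the sources used here. The study tested counts with another tool. Since the deposited unit is FPKM, linear models of log2(FPKM + 1) were fitted in limma (version 3.58.1, R 4.3.3), moderated with an intensity trend, so a fold change understates that of low genes.

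Each comparison (M vs C, AA vs C and AA vs M) used its 10 libraries and genes detected (FPKM above 0) in 5 or more of them. Calls needed an adjusted p (Benjamini-Hochberg, over all genes tested) no higher than 0.05 and an absolute log2 fold change no lower than 1. Each replicate is another mouse. The 9 genes, the actin list, the marker lists and the tests were chosen with earlier results of these data known. The rule for names took the 9 genes, their paralogs *Tln2* and *Myh14*, the 6 called genes of the actin list with the largest change in each comparison and the 6 genes nearest to *Flna* with a mean FPKM of at least 1 and FPKM above 0 in at least 10 of 15 libraries. *Pxn* and *Arhgdib* were named after their values were seen. For ratios of paralogs, exact permutation tests (two-sided) were adjusted over 8 of them, of which 6 are reported here, and 2 other adjustments were added after seeing the data.

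Symbols, positions and lengths came from GENCODE M21 (GRCm38), which held 54495 of 54532 genes, and promoter stretches from RefSeq (GRCm38.p6), where all 9 genes matched. Reads were recovered from the steps between FPKM values. Of the low values, up to 6 steps, 98.2 to 99.4% per library fell within 0.05 of a whole step, and since even steps were more frequent, 2 steps may be 1 fragment, a factor that was not resolved. No interval was computed from these reads. Same-numbered mice did not deviate together (correlations -0.144 to 0.230), so numbers are names only. On simulated data with M vs C libraries and 21153 genes, 114 of 200 genes moved by a log2 difference of 2 and 4 unchanged genes were called. Scripts ran in Python 3.11.15 (pandas 2.3.3, numpy 2.4.6, matplotlib 3.10.9, scipy 1.17.1). Alternatives were other pseudocounts, filters, scalings and fits, recovered reads in limma voom, each library left out and parts of the M group. The GC correction, and the ratios with M mice 1 to 3 alone, were added after seeing the data.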

Additional observations from a re-analysis of the deposited data

Results flagged for a closer look

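FPKM of *Iqgap1* in M mouse 2 was 9.83, far from the 2.07 to 3.79 of the other M mice. Its gap to the nearest of them was 0.779 of the group's range, above Dixon's 95% critical value of 0.71. Of the 27 groups of 5 values tested (9 genes in 3 groups), this was the only one past that value, and chance flags about 1 in 20.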

How the results depend on the processing

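The fall of *Tln1* in AA vs C was called under every alternative and with any 1 library left out. Counts here include *Flna*, which its own AA values chose, so its part in them supports nothing. The call of *Flnc* in M vs C was lost with a pseudocount of 0.1 or 0.01, the filter of FPKM above 0 in any library, the replicate block, library quality weights or M mice 4 and 5 alone. The filter of a mean FPKM of at least 1 removed *Flnc* before testing. In all of these settings 0 of the 9 genes were called, beside 0.0662 to 4.33% of all genes. Under TPM and limma voom on recovered reads (which called 1869, 8590 and 1703 genes in M vs C, AA vs C and AA vs M), *Tln1* was called in place of *Flnc*, and with M mice 1 to 3 alone 2 were called. Of all genes in M vs C, 7.61% were called under TPM, 8.84% under voom and 14.6% with M mice 1 to 3 alone. In AA vs C, 5 of 9 were called under TPM (31% of all genes called) and 6 under voom (39.2%). In AA vs M the count was 0 under TPM (2.13% of all genes called). It was 3 under quantile normalization (11.5%), library quality weights (12.4%) or M mice 4 and 5 alone (8.66%), and 4 under median centring (14.2%). Without 1 library, 0 to 2 were called in M vs C, 2 in AA vs C and 1 in AA vs M.

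Of the actin list in M vs C, 0 were called with a pseudocount of 0.1 or 0.01, the any-library filter, no mitochondrial genes, median centring, the block, the GC correction or M mice 4 and 5 alone, settings that called 0.0662 to 1.60% of all genes. The count was 4 with a mean FPKM of at least 1 (4.33% of all genes called), 6 under TPM (7.61%) or with all 15 libraries (3.72%) and 2 with no trend (1.03%). It was 7 under voom (8.84%) and 27 with M mice 1 to 3 alone (14.6%). In AA vs C, 17 were called with a pseudocount of 0.1 (34.1% of all genes called) or 0.01 (29.5%). There, 29 were called under TPM (31%) and 31 under voom (39.2%). In AA vs M, 0 were called under TPM (2.13% of all genes called) or voom (8.60%), and 2 with all 15 libraries (14.7%), the GC correction (10.9%) or quantile normalization (11.5%). The count was 4 with weights (12.4%) or M mice 4 and 5 (8.66%), 6 with M mice 1 to 3 (18.6%) and 8 under median centring (14.2%). Without 1 library the counts were 0 to 8, 7 to 16 and 1 to 3.

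Directions that turned in M vs C were those of *Flna* (-0.61 TPM, -0.49 voom, -0.24 with M mice 1 to 3), *Actn1* (-0.33 TPM, -0.28 voom), *Vcl* (-0.52 TPM, -0.53 voom), *Iqgap1* (-0.11 TPM, -0.086 voom), *Actn4* (0.078 with M mice 4 and 5) and *Myh9* (0.057 quantile normalization, 0.15 median centring, 0.12 weights, 0.10 GC correction, 0.56 with M mice 4 and 5, and -0.46 to 0.022 without 1 library). *Vcl* turned in AA vs C (-0.28 TPM, -0.24 voom). In AA vs M, *Vcl* and *Myh10* turned under median centring (-0.28 and -0.39), quantile normalization (-0.023 and -0.25) and the GC correction (-0.052 and -0.083), and *Myh9* and *Actn4* with M mice 1 to 3 (0.25 and 0.22), *Actn4* also without M mouse 5 (0.050). Voom moved the median of all genes to -1.63 in M vs C, -0.75 in AA vs C and 0.70 in AA vs M.

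Paired by mouse number, the replicate block left the difference of the *Tln1* to *Tln2* ratio in AA vs C at -1.31, where the smallest sign-flip p with 5 pairs is 0.0625, so it could not be called. Under Bonferroni it stayed at -1.31 and was not called either. It was -1.45 to -1.19 without 1 library. *Myh9* to *Myh10* was -0.011 in M vs C with M mice 1 to 3, -1.03 in AA vs M with M mice 4 and 5, and -0.28 to 0.30 in AA vs C without 1 library. *Tln1* to *Tln2* was -0.22 in M vs C with M mice 1 to 3 and -0.068 to 0.38 without 1 library, and -2.11 in AA vs M with a pseudocount of 0.1 and -2.03 with M mice 4 and 5. *Actn1* to *Actn4* was 0.78 to 1.14 in M vs C without 1 library. The cause of these changes was not tested. Few recovered reads lie behind *Flnc* in C mice (13 to 132) and *Flna* in AA mice (77 to 390).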
